A study of Mus musculus with 6 samples.

Results

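The 10 genes described here encode T cell checkpoint receptors, their ligands and 2 partners of the exhausted T cell state, and they are 10 of the 19349 gene rows of 6 single-cell count tables of mouse liver non-parenchymal cells. They were chosen by symbol, and all 10 were found in every table. Male C57BL/6J mice, 8 weeks old at purchase, were fed a high-fat diet for 24 weeks to produce nonalcoholic steatohepatitis. During the last 8 weeks they received by gavage either the DMSO vehicle or ginkgetin, a biflavone of Ginkgo biloba leaves, at 10 mg/kg per day, so the vehicle-treated mice carried the diet too, and each group had 3 libraries. Nothing in the labels ties the libraries to separate mice, so the p-values measure the spread between libraries. The group of each library rests on its title alone, and no value in the tables checks which mice were fed the diet or received ginkgetin. The members were followed in 7 classes of cells set by other marker genes, which held 14906 of the 27544 cells kept: 1621 CD8 T, 638 CD4 T, 103 regulatory T, 533 natural killer (NK), 3699 macrophage, 540 dendritic and 7772 endothelial cells.

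Checkpoint receptors hold back activated T cells when they meet a ligand on another cell. Pdcd1 (PD-1) binds the ligands encoded by Cd274 (PD-L1) and Pdcd1lg2 (PD-L2), Lag3 binds MHC class II, Tigit binds nectin-like molecules, Havcr2 (TIM-3) binds galectin-9 encoded by Lgals9, and Ctla4 competes with Cd28 for Cd80 and Cd86. Tox is a nuclear factor that T cells keep on during long antigen exposure, and Entpd1 (CD39) is an enzyme of the cell surface that breaks down extracellular ATP. In fatty liver disease, CD8 T cells with PD-1 and Cxcr6, a receptor that holds them in the liver, have been described.

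The marker genes matched the class names. Cd8a stood at 269 to 751 CPM (counts of a gene scaled by the sum of all UMIs of a class in a library) in CD8 T cells and at no more than 33.9 CPM in the other 6 classes. Foxp3 reached 371 to 503 CPM in regulatory T cells and at most 5.76 elsewhere, Ncr1 318 to 894 CPM in NK cells and at most 1.46 elsewhere, and Cd3e stayed at or under 4.59 CPM in NK cells. Libraries held 13128697 to 61796882 UMIs, and kept cells had medians of 2483 to 8412 UMIs. The library of vehicle 1 stood apart for Lag3, with 9 UMIs or 0.229 CPM over the whole library against 7.04 to 16 CPM in the other 5. Of 8925 genes at 5 CPM or more in those 5 libraries, 23 were like Lag3 under 1/4 of the lowest of them in vehicle 1, among them Scand1, Dapk3 and Tgfb1. Comparisons of Lag3 between groups are therefore given with and without vehicle 1. Replicates 1 and 2 were also counted against a different gene set from replicate 3, with 2617 rows counted in one set only, none of them a member. Libraries numbered 1 and 2 shared 23 to 85 cell barcodes per pair over both groups. Those numbered 3 shared 0 or 1 with any of these, and 10 with each other.

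Pdcd1 and Entpd1 carried the clearest differences between the groups, so the 250 bases before their starts are shown, from RefSeq on build GRCm38.p6 and written 5′ to 3′ along the gene. Capitals mark the core of the site of NFAT, the calcium-driven factor of T cell activation (GGAAA, searched on both strands). Pdcd1 lies at chr1:94038305-94052553 on the minus strand and its window at chr1:94052554-94052803. Entpd1 lies at chr19:40612366-40741602 and has 2 windows on the plus strand, at chr19:40612116-40612365 and, inside the gene at a second start, chr19:40659520-40659769.
Pdcd1: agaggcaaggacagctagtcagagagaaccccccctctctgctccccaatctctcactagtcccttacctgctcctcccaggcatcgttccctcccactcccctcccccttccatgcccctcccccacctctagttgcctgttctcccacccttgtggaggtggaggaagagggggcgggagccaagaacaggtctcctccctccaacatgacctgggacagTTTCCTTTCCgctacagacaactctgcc
Entpd1, first start: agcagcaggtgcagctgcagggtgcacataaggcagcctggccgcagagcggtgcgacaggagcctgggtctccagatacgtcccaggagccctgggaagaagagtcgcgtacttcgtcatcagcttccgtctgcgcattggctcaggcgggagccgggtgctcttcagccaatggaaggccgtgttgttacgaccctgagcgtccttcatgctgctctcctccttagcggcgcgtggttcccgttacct
Entpd1, second start: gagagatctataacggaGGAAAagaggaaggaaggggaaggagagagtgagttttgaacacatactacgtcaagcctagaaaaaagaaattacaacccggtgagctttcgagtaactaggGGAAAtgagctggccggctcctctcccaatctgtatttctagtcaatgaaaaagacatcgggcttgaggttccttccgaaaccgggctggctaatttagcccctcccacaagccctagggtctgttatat
The Pdcd1 window held 2 adjoining copies on the opposite strand, 28 and 23 bases before the start. The first Entpd1 window held none and the second held 2, at 233 and 130 bases before the start. Of 9 windows of the 8 members with an entry, 7 held this core, against 55.6% of all 32851 windows of the same length. The AP-1 motif TGANTCA was in 1 of the 9 against 6.75% of all, the T-box core AGGTGT in 1, that of Ctla4, against 11.8%, and neither the STAT motif TTCNNNGAA (7.02% of all) nor the NR4A motif AAAGGTCA (1.34%) was found in any. These are matches of letters and not measured sites.

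Of the receptors, Pdcd1, Ctla4 and Tigit had their highest mean in regulatory T cells and Lag3 in NK cells. Mean levels over all libraries with 10 or more cells of a class were, for Pdcd1, 125 CPM in regulatory T cells, 68.0 in CD8 T cells, 47.2 in CD4 T cells and 10.4 in NK cells. It stood under 1 CPM in macrophages, dendritic and endothelial cells. For every member the regulatory T mean covers 2 vehicle libraries and 1 ginkgetin library, and those of the other classes 3 of each. A member lower in ginkgetin libraries, such as Pdcd1, thus has its regulatory T mean raised by this imbalance. These Pdcd1 means did not differ between neighbouring classes by more than their SD over libraries, which covers both groups of mice. Ctla4 (chr1:60909025-60915832) was ordered more sharply, with 492 ± 139 CPM in regulatory T cells (SD, n = 3), 122 ± 86.1 in CD4 T cells (n = 6), 33.6 ± 14 in CD8 T cells (n = 6) and 5.27 ± 4.81 in NK cells (n = 6), each step larger than the larger SD of its pair. Tox (chr4:6686353-6991557) was a gene of T and NK cells only among these classes, from 77.6 to 174 CPM there and at most 0.768 CPM in the other 3. Lag3 (chr6:124904359-124912434) was spread over NK cells at 42.2, CD8 T cells at 36.2 and dendritic cells at 23.4 CPM (50.6, 42.8 and 28.1 without vehicle 1), and these did not differ beyond their SD. Tigit (chr16:43626137-43665125) was near the limit of detection, with class means of at most 6.96 CPM, and none of its 7 classes passed the count filter. It had 73 UMIs over the 76 sums of a library and a class used for the correlations given below. In dendritic cells it had 0 UMIs in all 6 libraries, which allows at most 0.468 CPM.

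Havcr2, Entpd1, Cd274 and Lgals9 had their highest mean outside the T cells. Havcr2 (chr11:46454931-46481255) stood at 61.1 ± 30.6 CPM in dendritic cells (SD, n = 6), above macrophages at 17.1 and CD8 T cells at 15.4 by more than the SD, and it had 0 UMIs in NK cells of all 6 libraries, which allows at most 1.37 CPM. Entpd1 was highest in macrophages at 102 ± 65.6 CPM, then dendritic cells at 39.2, and was found in every class. Lgals9 (chr11:78962979-78984924) led in endothelial cells at 179 ± 49.6 CPM, followed by macrophages at 119 ± 22.2 and NK cells at 63.7 ± 19.0, each step larger than the larger SD. Cd274 (chr19:29362107-29388095) was the flattest of the 10, from 14 CPM in endothelial cells to 32.2 in NK cells with no step beyond the SD. Pdcd1lg2 (chr19:29410919-29472927), the neighbour of Cd274 on the chromosome, was instead a lymphocyte gene here, at 48.3 CPM in regulatory T, 30.0 in NK and 23.7 in CD4 T cells, above CD8 T cells at 8.45, with 1.98 in macrophages and 4.48 in dendritic cells. Over the 60 pairs of neighbouring classes in these orders, 9 were apart by more than the larger SD.

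**Figure D1:**
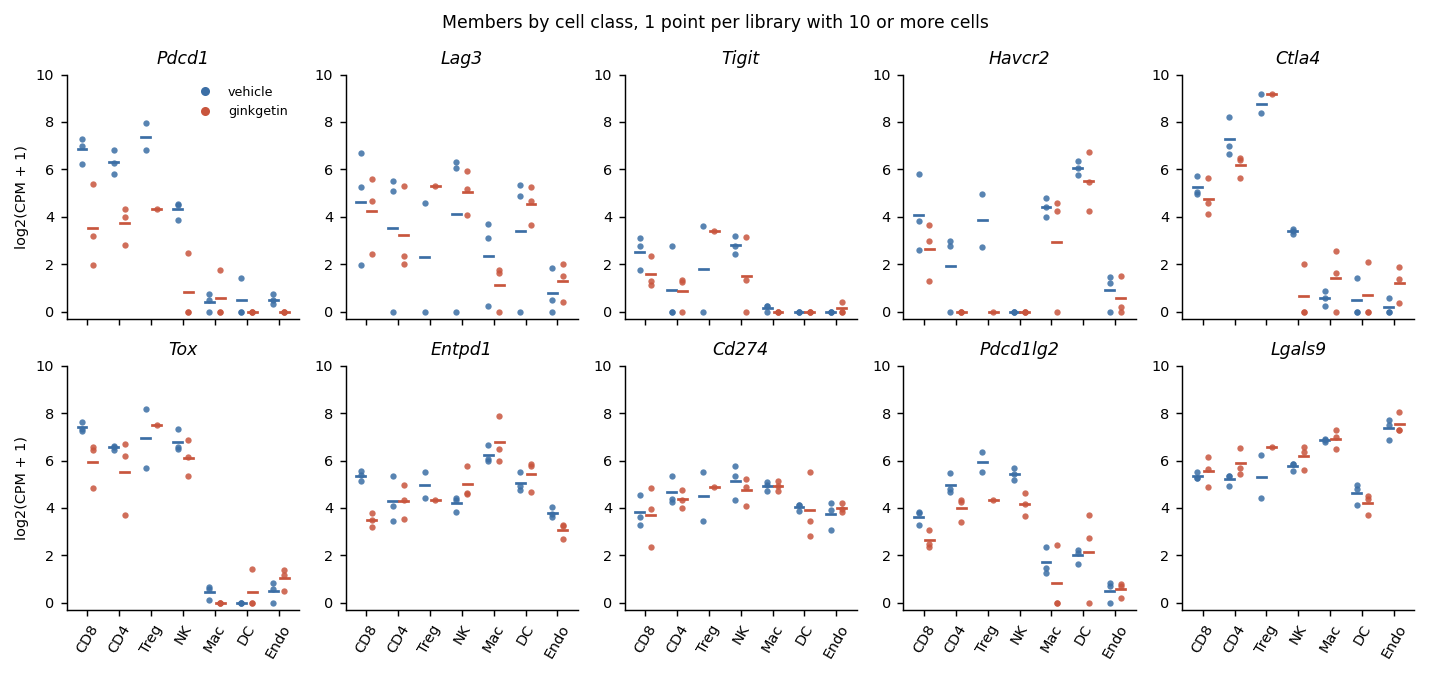
Level of each of the 10 genes, as log2(CPM + 1) on the vertical axis, in CD8 T, CD4 T, regulatory T (Treg), NK, macrophage (Mac), dendritic (DC) and endothelial (Endo) cells. Each point is 1 library with 10 or more cells of the class, blue for vehicle and red for ginkgetin, and the short lines are means. Tox is near 0 outside T and NK cells, Lgals9 is highest in endothelial cells, and the red Pdcd1 points lie under the blue ones in CD8 T and CD4 T cells.

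Pdcd1 was lower in T cells of ginkgetin-treated mice. In CD8 T cells it measured 127, 155 and 73.8 CPM (217, 107 and 118 UMIs) in vehicle 1, 2 and 3 and 40.9, 2.93 and 8.05 CPM (60, 2 and 7 UMIs) in ginkgetin 1, 2 and 3. All vehicle libraries lay above all ginkgetin libraries, with means of 119 ± 41.4 and 17.3 ± 20.6 CPM (SD, n = 3 each). The log2 fold change was -2.59 (SE 0.68), and it did not pass edgeR's quasi-likelihood test over all 7314 genes, at an adjusted p of 0.44. No label pairs the samples by replicate number. With that number as a block Pdcd1 passed, with a log2 fold change of -2.81 (SE 0.49) and an edgeR adjusted p of 0.0366. Without ginkgetin 1 the log2 fold change was -4.40, at an adjusted p of 0.0542 without the block.

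Pdcd1 was also lower in CD4 T cells, the helper T cells, where it measured 75.4, 54.7 and 113 CPM (33, 11 and 59 UMIs) in the vehicle libraries and 6.08, 19.2 and 15 CPM (4, 3 and 11 UMIs) in the ginkgetin libraries. The groups again did not overlap (81.0 ± 29.5 against 13.4 ± 6.68 CPM). The log2 fold change was -2.74 (SE 0.47) at an edgeR adjusted p of 0.0627 over 4960 genes, and Pdcd1 fell by 2.84 on the log2 scale with the block (SE 0.41, adjusted p = 0.0055). With the 2 counted gene sets as the block in place of the replicate number, the CD4 T cell value stayed past the threshold at an adjusted p of 0.00519, where 0.343% of genes passed, and the CD8 T cell value did not, at 0.0871, where 0.123% passed. In regulatory T cells, which restrain other T cells, only vehicle 1, vehicle 3 and ginkgetin 3 held 10 or more cells, so no test was possible: they measured 111, 244 and 19.0 CPM from 11, 43 and 2 UMIs. In NK cells Pdcd1 stood at 13.5, 21.9 and 22.3 CPM in the vehicle libraries and 0, 0 and 4.59 in the ginkgetin libraries (23 against 3 UMIs in all), too few counts to pass the filter.

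Entpd1 was the other member that passed the test in CD8 T cells with the block. It measured 41.0, 46.5 and 34.4 CPM (70, 32 and 55 UMIs) in the vehicle libraries and 8.19, 10.2 and 12.7 CPM (12, 7 and 11 UMIs) in the ginkgetin libraries, and the groups did not overlap (40.6 ± 6.05 against 10.4 ± 2.24). The log2 fold change was -1.95 (SE 0.33), with an unadjusted edgeR p of 0.000168 and an adjusted p of 0.196. With the replicate block Entpd1 fell by 1.93 on the log2 scale (SE 0.31, adjusted p = 0.0253), and with the gene set as the block its adjusted p was 0.0568. Tox, which T cells raise under lasting stimulation, pointed the same way in CD8 T cells with 151, 195 and 160 CPM in the vehicle libraries and 92.8, 27.8 and 86.3 CPM in the ginkgetin libraries. Its groups did not overlap (168 ± 23.2 against 69.0 ± 35.8), but the fitted log2 difference of -1.27 (SE 0.37) missed the threshold at an adjusted p of 0.476 in edgeR, and at 0.132 with the block. For Tox the groups overlapped in CD4 T cells, with 86.8, 94.4 and 97.6 against 12.2, 102 and 72.3 CPM.

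**Figure D2:**
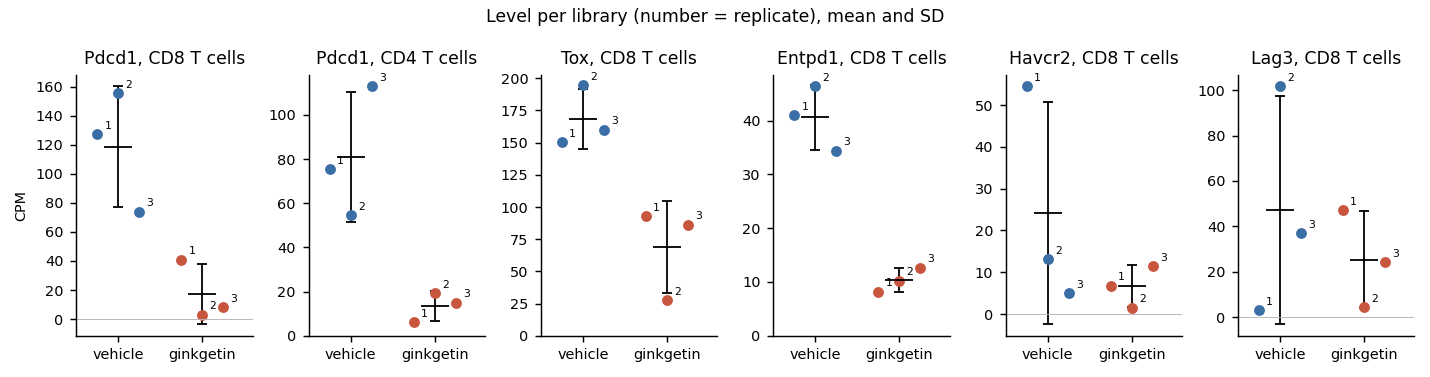
Levels in CPM, from 0, of 5 genes in CD8 T cells and of Pdcd1 also in CD4 T cells. Each point is 1 library, numbered by replicate, blue for vehicle and red for ginkgetin, and the bars are the mean and SD (n = 3). The groups do not overlap for Pdcd1, Tox and Entpd1, whereas 1 vehicle library sets the mean of Havcr2 (54.5 CPM in vehicle 1) and vehicle 1 is near 0 for Lag3 (2.93 CPM).

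The other receptors of CD8 T cells gave no such separation. Havcr2, a receptor of late exhausted cells, measured 54.5, 13.1 and 5.0 CPM in the vehicle libraries and 6.82, 1.46 and 11.5 CPM in the ginkgetin libraries. These overlap, and the fitted log2 difference of -1.88 (SE 0.83, adjusted p = 0.653 in edgeR) shrank to -0.30 without vehicle 1. Lag3 measured 2.93, 102 and 36.9 against 47.1, 4.39 and 24.2 CPM, a fitted log2 difference of -0.73 (SE 0.95, adjusted p = 0.873 in edgeR) that was -1.35 without vehicle 1, where the vehicle mean was 69.3 ± 45.8 CPM (SD, n = 2) in place of 47.2 ± 50.2. Ctla4 measured 31.6, 30.5 and 51.9 against 48.4, 16.1 and 23.0 CPM (log2 fold change -0.28, edgeR adjusted p = 0.893). Tigit stayed at 1.15 to 7.50 CPM in all 6 libraries.

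In CD8 T cells as a whole, 0 of the 9 members tested passed edgeR's test, as did 0% of the 7314 genes tested, of which 552 had an unadjusted p under 0.05. With the replicate block 2 of the 9 passed, Pdcd1 and Entpd1, against 0.396% of all genes. The levels of 4 of the 9 did not overlap between the groups, all 4 lower in ginkgetin-treated mice (Pdcd1, Tox, Entpd1 and Pdcd1lg2), against 12.8% of all genes tested in either direction and 9.35% lower. The median log2 fold change of the 9 was -1.10, with 7 lower, where that of all genes was 0.02. In CD4 T cells 0 of the 6 members tested passed, against 0.0403% of genes, and 1 with the block, Pdcd1, against 0.544%. Their median log2 fold change was -1.13 with 5 of 6 lower, beside 0.02 for all genes, and 4 of the 6 did not overlap (3 lower, 1 higher), against 12.8% of genes (8.97% lower, 3.81% higher). The lower ones other than Pdcd1 were Ctla4, at 98.2, 124 and 291 against 82.1, 89.4 and 49.1 CPM (log2 fold change -1.18, edgeR adjusted p = 0.689), and Pdcd1lg2. With a library left out their log2 fold changes ran from -1.44 to -0.59 for Ctla4 and from -1.47 to -0.63 for Pdcd1lg2. In other settings Ctla4 came as near to 0 as -0.25. Over the 6 classes with enough libraries, 0 of 32 pairs of a member and a class passed edgeR's test, against 2.41% of all pairs of a gene and a class (4.37% with the block). An unadjusted p under 0.05 was reached by 11 of the 32. The share of all genes at that cut is given here for CD8 T cells only, so this count is not read as an excess. The same 3 pairs, Pdcd1 and Entpd1 in CD8 T cells and Pdcd1 in CD4 T cells, passed with the replicate block, with DESeq2's Wald test (adjusted p = 0.00978, 0.0348 and 0.00947), which called 0.369% of genes in CD8 T and 0.302% in CD4 T cells, and without the filter on low counts, where 0.417% and 0.644% of genes were called.

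**Figure D3:**
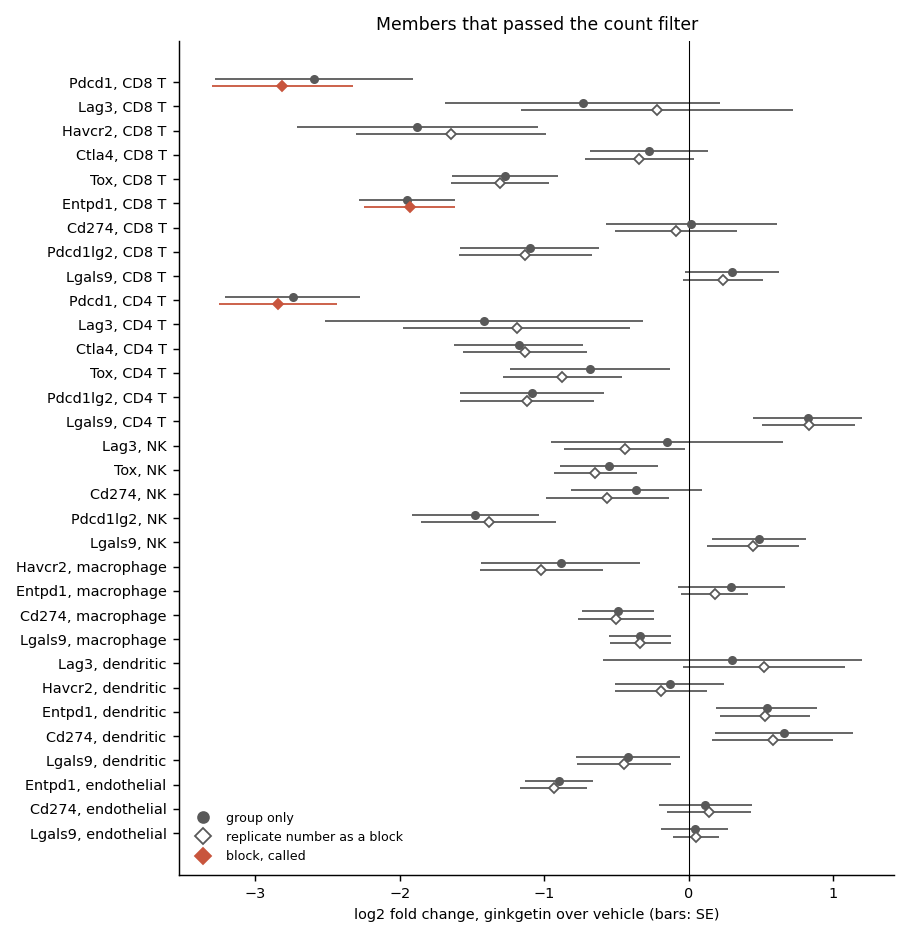
Log2 fold change of ginkgetin over vehicle, with its SE, for the 32 pairs of a member and a class that passed the count filter. Filled circles are the edgeR fit on group alone and diamonds the fit with the replicate number as a block, red where past an adjusted p of 0.05 and a fold of 2. The 3 red diamonds, Pdcd1 and Entpd1 in CD8 T cells and Pdcd1 in CD4 T cells, lie between -2.84 and -1.93.

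Markers of other cells in the T cell sums differed between the groups. The summed level of 8 macrophage markers in CD8 T cells was 160 to 254 CPM in the vehicle libraries and 39.1 to 104 in the ginkgetin libraries, with at most 1 and 3 of the 8 at 0. At the same fraction of macrophage RNA, Entpd1 would reach 0.806 CPM and Havcr2 0.229 CPM in the vehicle libraries with the highest values. The sum of 8 endothelial markers was 42.2 to 62.4 CPM in the vehicle and 173 to 607 CPM in the ginkgetin libraries, with none of the 8 at 0 in any library. Lgals9 would reach 7.87 CPM at that fraction in the highest library. Cells were left out by markers of other classes, which holds these fractions down, so they set no upper limit. The part of these markers' cells in the results was not tested. Pdcd1 had 3 UMIs in vehicle and 0 in ginkgetin endothelial cells.

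Shares of positive cells were compared after each cell was thinned to 1000 UMIs, because depth differed between libraries. This left out no CD8 or CD4 T cell and at most 52 cells of any class and group, the ginkgetin macrophages. Pdcd1 was seen in 8.95%, 11.1% and 6.96% of CD8 T cells in the vehicle libraries and in 3.13%, 0% and 1.64% in the ginkgetin libraries. The difference of means was -7.42 percentage points, and in B cells and endothelial cells, which should lack Pdcd1, the thinned share was 0% in all libraries (median depths of 2136 to 2874 UMIs, against 3548.5 and 4128 in CD8 T cells). Without thinning the shares were 25.3%, 25.8% and 23.4% against 12.5%, 0.625% and 1.64%, and B cells then reached at most 0.395%. Tox was seen in 13.6%, 20.4% and 19.9% against 7.69%, 3.75% and 5.74%, and Entpd1 in 4.03%, 4.89% and 2.85% against 0.570%, 2.50% and 0.820%. In CD4 T cells Pdcd1 was seen in 10.9%, 6.78% and 11.7% of vehicle cells and in 0 of 340 ginkgetin cells, which allows a share of up to 0.882% of cells with a UMI after thinning. At full depth the same cells held 18 UMIs of it, in 2.33%, 3.77% and 6.96% of cells, against 16%, 15.3% and 24.2% in the vehicle libraries. None of these can pass a test, since 3 libraries against 3 cannot go under a two-sided exact permutation p of 0.1, which each of them reached (0.545 after adjustment over 60 pairs). Of the 60 pairs of a member and a class, 11 did not overlap, against 12.6% of all genes with a UMI in the same classes.

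Several receptors in a single cell, the usual mark of exhaustion, were rare at this depth, and in thinned CD8 T cells they did not separate the groups. CD8 T cells with a UMI of 2 or more of Pdcd1, Lag3, Tigit, Havcr2 and Ctla4 made up 1.79%, 3.11% and 0.633% in the vehicle libraries and 2.28%, 0% and 1.64% in the ginkgetin libraries after thinning, a difference of -0.538 percentage points (two-sided exact permutation p = 0.6). With a library left out the difference ran from -1.14 to 0.115, above 0 without vehicle 2 (0.0949) or ginkgetin 2 (0.115), and it was -0.566 without vehicle 1, the library low in Lag3, which is one of the receptors counted. The difference was -4.18 points when cells were thinned to 2000 UMIs and -9.32 points without thinning, where the shares of 13%, 13.8% and 17.1% against 12%, 0.625% and 3.28% did not overlap. The thinned shares in CD4 T cells did not overlap either, at 3.36%, 1.69% and 4.17% against 0%, 0% and 0.870% (two-sided exact permutation p = 0.1, the smallest possible), whereas those without thinning did, at 4.20%, 8.47% and 20.8% against 1.16%, 3.77% and 4.35%.

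Within CD8 T cells, Tox was seen more often in cells with Pdcd1 than in cells without it, described here over pooled cells of a group at full depth. Of 988 vehicle cells 245 held a Pdcd1 UMI (113, 58 and 74 by library), and of 633 ginkgetin cells 47 did, of which 44 were from ginkgetin 1, so the ginkgetin values describe mainly that library. Among those, Tox was seen in 66.1% of vehicle cells (29.2% of cells without Pdcd1) and in 76.6% of ginkgetin cells (15.7%). Ctla4 was seen in 22.4% and 36.2% of cells with Pdcd1 (8.21% and 8.02% without), and Lag3 in 16.3% and 51.1% (5.52% and 6.31% without), where the vehicle values hold the library that is low in Lag3. Entpd1 was seen in 23.7% and 12.8% of cells with Pdcd1 (10.5% and 3.75% without). Cells with more UMIs have more chances of both genes, and no test was made.

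Cxcr6, the liver residence receptor, was used to split the CD8 T cells. Cells with a Cxcr6 UMI were 58.2%, 59.1% and 68.7% of CD8 T cells in the vehicle libraries and 50.7%, 20% and 44.3% in the ginkgetin libraries. Of the 4 members whose groups did not overlap in the whole class, Pdcd1, Tox and Entpd1 were lower in ginkgetin libraries without overlap on both sides of the split, which is a description with no test, since these are the same cells. In cells with Cxcr6, mean Pdcd1 was 135 ± 43.0 against 24.9 ± 28.4 CPM, Tox 189 ± 18.2 against 93.2 ± 54.5 and Entpd1 48.7 ± 11.8 against 21.7 ± 10.1 (SD, n = 3 each). In cells without it, Pdcd1 was 92.8 ± 49.0 against 9.61 ± 13.6, Tox 134 ± 33.4 against 48.3 ± 18.7 and Entpd1 28.2 ± 2.37 against 5.03 ± 0.857, the last from only 4, 3 and 2 UMIs. The fourth, Pdcd1lg2, overlapped in cells with Cxcr6 (9.94 against 13.8 CPM) and did not in cells without it (13.9 against 1.21 CPM, the latter from 0, 2 and 0 UMIs). Havcr2, whose groups overlapped in the whole class, likewise overlapped in cells with Cxcr6 (32.5 against 15.4 CPM) and did not in cells without it (12.3 against 0.467 CPM). The latter rest on 13, 4 and 2 vehicle UMIs and 1, 0 and 0 ginkgetin UMIs, so both separations lie near the limit of detection. The share of all genes without overlap was not computed for either side. A cell without a Cxcr6 UMI may still express the gene.

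**Figure D4:**
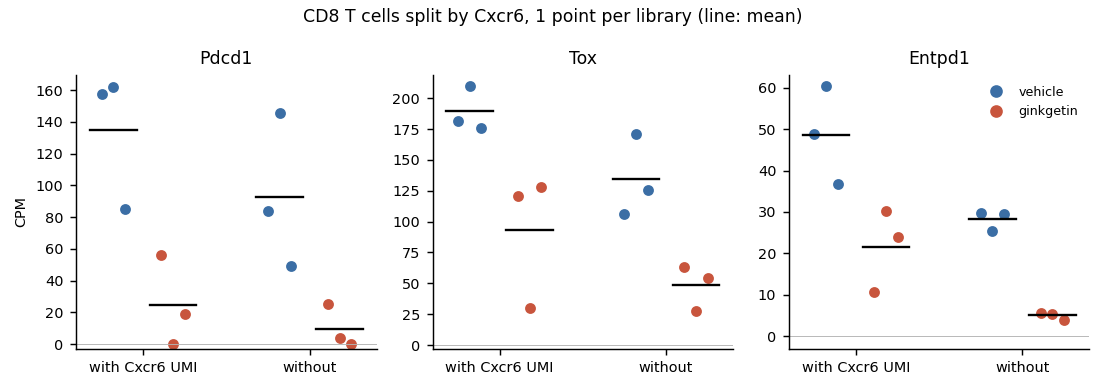
Pdcd1, Tox and Entpd1 in CPM in CD8 T cells with and without a Cxcr6 UMI. Each point is 1 library, blue for vehicle and red for ginkgetin, and lines are means. The red points lie under the blue ones on both sides of each panel, and the red Entpd1 points of cells without Cxcr6 (mean 5.03 against 28.2 CPM) rest on 4, 3 and 2 UMIs.

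Outside CD8 T cells, Entpd1 was lower without overlap in endothelial cells, higher without overlap in NK cells and overlapped in macrophages. In NK cells, innate killers that share many genes with CD8 T cells, Entpd1 was at 19.3, 13.1 and 20.3 CPM in the vehicle libraries and 23.9, 23.0 and 53.6 CPM in the ginkgetin libraries, thus on the other side from CD8 T cells, from 23 and 42 UMIs that did not pass the filter, 35 of the 42 in ginkgetin 3. In endothelial cells Entpd1 measured 11.4, 12.3 and 15.3 against 5.54, 8.37 and 8.62 CPM with no overlap (a log2 difference of -0.90 with SE 0.24, adjusted p = 0.161 in edgeR and 0.0557 with the block). The 8 macrophage markers summed there to 143 to 338 CPM in vehicle and 58.0 to 139 CPM in ginkgetin libraries, and their part was not tested. In macrophages, its main site, it measured 66.7, 62.0 and 101 against 62.8, 89.5 and 232 CPM, and ginkgetin 3 alone stood out. The 5 members tested in NK cells gave 0 calls where 0.161% of genes passed, the 4 in macrophages 0 where 9.78% of genes passed, the 5 in dendritic cells 0 where 0% passed, and the 3 in endothelial cells 0 where 0.799% passed. Levels that did not overlap were 1 of 5 in NK cells (16% of genes), 0 of 4 in macrophages (36.1%), 0 of 5 in dendritic cells (15.9%) and 1 of 3 in endothelial cells (17.1%). Lag3 in macrophages, whose own ligand MHC class II these cells carry, measured 0.164, 7.62 and 12.1 against 0, 2.42 and 2.12 CPM and missed the count filter. These values rest on 2, 47 and 145 UMIs in the vehicle and 0, 1 and 3 in the ginkgetin libraries. Without vehicle 1, where 3.13% of genes were called, it passed, and it fell by 3.0 on the log2 scale (edgeR adjusted p = 0.0476, 9.85 ± 3.15 against 1.51 ± 1.32 CPM, n = 2 and 3). Vehicle 1 was left out for its low Lag3, and nearly all UMIs then lie in the vehicle libraries kept. This call therefore depends on the exclusion and is no test of its own. The T cell markers summed to 2.25 to 10.3 CPM in vehicle and 18.4 to 80.7 CPM in ginkgetin macrophages, and 8 endothelial markers to 98.1 to 165 and 565 to 1374 CPM, with none of the 8 at 0. Their part in the macrophage values was not tested. In NK cells Lag3 measured 0, 65.6 and 77.2 against 15.9, 34.6 and 59.7 CPM, and its log2 fold change was -0.15 with and -0.80 without vehicle 1. In dendritic cells it measured 0, 38.9 and 28.3 against 11.5, 24.3 and 37.6 CPM, and the log2 fold change of 0.30 became -0.40 without vehicle 1. Among CD4 T cells Lag3 measured 0, 44.7 and 32.5 against 3.04, 38.3 and 4.09 CPM, with a log2 fold change of -1.42 that became -2.02.

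The ligands gave no call in the classes tested. Cd274 was at 30.6, 25.1 and 32.7 CPM in vehicle macrophages and 29.1, 33.9 and 25.4 CPM in ginkgetin macrophages (a log2 difference of -0.49 with SE 0.25, adjusted p = 0.222 in edgeR), which is on the TMM scale, whereas the plain mean CPM were equal at 29.5. In endothelial cells it measured 7.33, 17.5 and 14.2 against 14.3, 13.2 and 17.4 CPM. Lgals9 measured 117, 178 and 208 against 157, 155 and 260 CPM in endothelial cells (log2 fold change 0.04, SE 0.23) and 115, 119 and 110 against 87.4, 128 and 155 CPM in macrophages (-0.34, SE 0.21). In macrophages the sign on the TMM scale is opposite to that of the plain mean CPM of 115 in vehicle and 123 in ginkgetin libraries. At the fraction of the endothelial markers in ginkgetin macrophages Lgals9 would reach 17.8 CPM in the highest library, which is no upper limit. The ginkgetin macrophages had a median of 2052 UMIs a cell against 9084.5 in vehicle macrophages. In CD4 T cells Lgals9 was the single member higher without overlap, at 29.7, 39.8 and 40.2 against 42.5, 51.1 and 90.1 CPM (a log2 difference of 0.82 with SE 0.38, adjusted p = 0.722 in edgeR). At the fraction of the endothelial markers in those cells Lgals9 would reach 11 CPM in the highest library, which is no upper limit. The part of these markers' cells in the result was not tested. Pdcd1lg2 was lower in 3 lymphocyte classes without overlap: NK cells at 50.3, 35 and 42.7 against 23.9, 11.5 and 16.8 CPM, CD4 T cells at 43.4, 24.9 and 26.8 against 18.2, 19.2 and 9.55 CPM, and CD8 T cells at 12.9, 13.1 and 8.75 against 4.09, 7.32 and 4.60 CPM. Its log2 fold changes there were -1.48 (SE 0.44), -1.08 (SE 0.50) and -1.10 (SE 0.48), with edgeR adjusted p of 0.232, 0.722 and 0.653, the first 0.0884 with the block.

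In dendritic cells these genes were unevenly spread over the subsets. Havcr2 in the class measured 80.1, 53.8 and 64.8 against 42.8, 18.2 and 107 CPM (log2 fold change -0.13, edgeR adjusted p = 0.919). Summed over all libraries, it stood at 96.0 CPM in type 1 cells, the cross-presenting cells with Xcr1 and Clec9a, and at 76.4 in type 2 cells, 19.5 in plasmacytoid cells and 14.9 in mature cells. Cd274 ran the other way, with 92.4 CPM (95% counting interval 70.9 to 119) in the 70 mature cells, marked by Fscn1, Ccl22 and Ccr7, against 8.88 (6.03 to 12.6) in 228 type 1 cells and 15.7 in 125 type 2 cells. Plasmacytoid cells, the interferon producers, held 0 Cd274 UMIs in 43 cells but the highest Lag3, at 140 CPM (101 to 189), in which vehicle 1 is included. Only 13 of the 70 mature cells were from ginkgetin-treated mice, and their 25 Cd274 UMIs and the 37 of 57 vehicle cells cannot be compared over libraries.

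**Figure D5:**
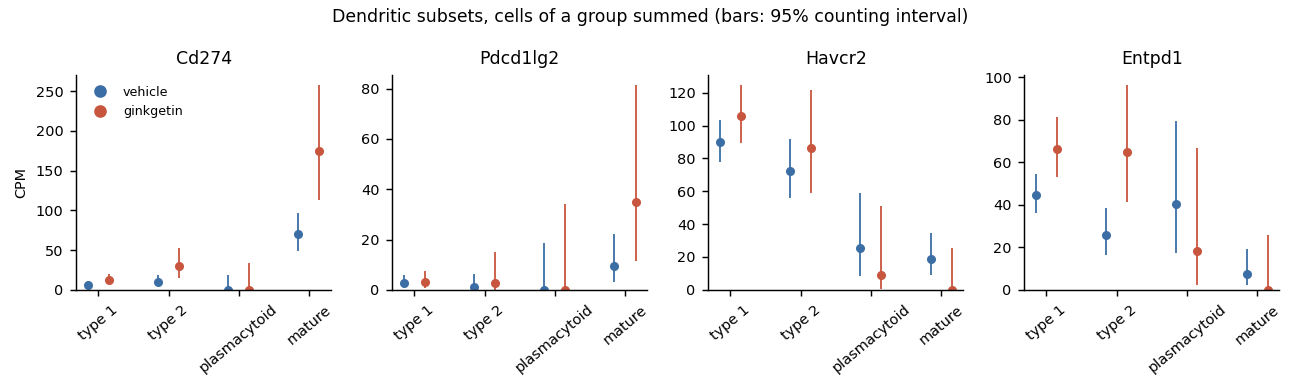
Cd274, Pdcd1lg2, Havcr2 and Entpd1 in CPM in 4 dendritic subsets, cells of all libraries of a group summed, blue for vehicle and red for ginkgetin. Bars are 95% counting intervals and do not cover the spread between libraries. Cd274 is highest in mature cells (92.4 CPM over both groups) and Havcr2 in type 1 cells (96.0 CPM).

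Other genes of the checkpoint and exhaustion pathways were read from 2 lists, 23 partners and costimulators and 20 genes of the exhaustion and effector programme. Of 149 pairs of these genes and a class, edgeR's test passed 1 lower and 1 higher, both in macrophages, and with the replicate block 11 lower and 3 higher, where 4.37% of all pairs of a gene and a class passed. The 2 were of 24 pairs tested in macrophages, where 9.78% of all genes passed, so that share is near the background. Icos, a costimulator of T cells, rose from 6.15, 7.14 and 6.25 to 40.3, 38.7 and 38.8 CPM in macrophages (log2 fold change 2.15, edgeR adjusted p = 0.0055), where the T cell and endothelial markers given above were also higher. Cd200r1, an inhibitory receptor of myeloid cells, fell there from 34.2, 27.1 and 31.3 to 8.96, 9.68 and 23.3 CPM (-1.44, edgeR adjusted p = 0.0216). In CD8 T cells 16 of 19 programme genes tested had a negative log2 fold change, with a median of -0.90, as had 11 of 15 partners, beside 47.7% of all genes tested there, with a median of 0.02. In the other classes the programme genes were lower in 8 of 15 (CD4 T), 5 of 16 (NK), 5 of 13 (macrophage), 4 of 9 (dendritic) and 4 of 8 (endothelial). Eomes, a factor of memory and exhausted cells, measured 121, 209 and 136 against 25.9, 24.9 and 51.8 CPM, and the granzyme gene Gzmk 351, 360 and 249 against 96.2, 29.3 and 35.7 CPM. Neither passed without the block (edgeR adjusted p = 0.185 and 0.249), and both fell with it (adjusted p = 0.0117 and 0.0108). The chemokine receptor gene Cxcr3 measured 108, 131 and 161 against 51.2, 42.4 and 75.9 CPM and the costimulator Tnfrsf18 measured 94.9, 45.0 and 81.3 against 24.6, 24.9 and 42.6 CPM (edgeR adjusted p = 0.293 and 0.44). Tcf7, the factor of naive and stem-like T cells, lay the other way in 2 of 3 ginkgetin libraries, at 125, 77.0 and 158 against 79.1, 211 and 575 CPM. In CD4 T cells the receptor gene Cd160 rose with the block from 11.4, 29.8 and 11.5 to 74.5, 83.0 and 80.5 CPM (adjusted p = 0.0068, and 0.123 without). In macrophages Cxcr6 measured 0.901, 0.973 and 0.0833 against 13.4, 9.68 and 3.53 CPM (edgeR adjusted p = 0.0629, and 0.00548 with the block). Prdm1, a factor of effector cells, measured 14.7, 22.7 and 51.5 against 9.12, 10.2 and 14.7 CPM in endothelial cells (adjusted p = 0.150 in edgeR, and 0.0229 with the block). In endothelial cells Cd200, the ligand of Cd200r1, measured 30.3, 28.6 and 53.9 against 4.56, 20.6 and 14.3 CPM (edgeR adjusted p = 0.204, and 0.0352 with the block). The other calls made with the block alone were all lower: Tnfrsf9, Tnfrsf18, Cd200r1 and Cd226 in NK cells (log2 fold changes of -1.38, -1.12, -1.54 and -1.01, adjusted p = 0.00962, 0.0413, 0.00339 and 0.0427 in edgeR), Ccl5 in dendritic cells (-1.71, adjusted p = 0.00754) and Nr4a3 in macrophages (-2.50, adjusted p = 0.0147). In NK cells the T cell markers summed to 63.0 to 94.7 CPM in vehicle and 98.0 to 344 CPM in ginkgetin libraries and the endothelial markers to 108 to 114 and 175 to 720 CPM, and their part was not tested. With the gene set as the block, Tnfrsf18 and Cd226 in NK cells and Ccl5 in dendritic cells missed the threshold (adjusted p = 0.0674, 0.0505 and 0.0881 in edgeR), and the other 11 of the 14 calls passed.

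The genes whose levels ran most like a member were taken over 76 sums of a library and a class and 11953 genes, by the Pearson correlation of log2(CPM + 1). The sums share libraries, depth and cell types, so the values are descriptions. Pdcd1 was nearest to the T cell genes Ubash3a (r = 0.863), Sh2d1a (0.857) and Cd3g (0.843), and Ctla4 to Cd28 (0.872), the costimulator it competes with. Pdcd1lg2 was nearest to Tnfrsf18 (0.838), Entpd1 to Gpr65 (0.792), Havcr2 to Tnip3 (0.787), Cd274 to Pik3cg (0.748) and Lgals9 to Glul (0.825). Lag3 had no close partner (4932422M17Rik at 0.576), and Tigit, with 73 UMIs, was nearest to Gfi1 (0.750).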

How the data were processed

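The authors deposited 6 tables of whole UMI counts per gene and cell from libraries that the study's methods describe as 10x Chromium, whereas the extract protocol in the labels names a SMARTER kit and total RNA. The methods filter cells in Seurat, but the tables still hold barcodes outside the stated limits, so the deposited counts precede that filter. The submitters' processing notes name mm10 and GRCm38, and the aligner is not given in the sources used here. The members and gene lists were chosen with earlier results of these data known.

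Cells with 250 to 5000 genes and under 5% mitochondrial UMIs were kept (27544 of 33168 barcodes). The study states its limits of 250 and 5000 for UMIs, so applying them to genes departs from its methods, and applied to UMIs they keep 16821. A cell entered a class with 3 or more of its markers (2 for NK and dendritic cells) and at most 1 marker of another class at 2 or more UMIs, which also left out cells of mixed markers. No doublet caller was run. Unclassed cells were 17.9% to 27.3% of a library, and classes from whole profiles agreed for 96.7% of cells.

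Counts were summed per library and class (10 or more cells) and fitted in edgeR 4.0.16 (R 4.3.3, TMM, filterByExpr, quasi-likelihood, Benjamini-Hochberg over all genes of a class). A call needed an adjusted p under 0.05 and a fold over 2, as for the study's bulk data. The fit was tested on simulated data. Same-numbered samples deviated together in every class (correlations of 0.102 to 0.765), most for number 3, at 0.478 to 0.765. Replicate 3 also differed in its gene set, and no label pairs the samples. These correlations therefore do not show that samples of number 1 or of number 2 are pairs. All 10 members are named, with up to 10 other pathway genes, the called ones (without the block) and those of lowest p in CD8 T, macrophage and endothelial cells. Tcf7, and Cd160 and the other genes called with the block alone, were chosen after their values were seen. Intervals cover counting error only. Alternatives were DESeq2 1.42.0, other filters, gates, blocks and thinning depths, and leaving out each library.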

Additional observations from a re-analysis of the deposited data

Results flagged for a closer look

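Entpd1 differed in direction between classes. Its mean in NK cells was 33.5 CPM in ginkgetin and 17.6 CPM in vehicle libraries, with every ginkgetin library higher but only 3, 4 and 35 UMIs behind the ginkgetin values (23.9, 23.0 and 53.6 CPM) and 10, 3 and 10 behind the vehicle values, so ginkgetin 3 carries most of the gap. In CD8 T cells it was 10.4 against 40.6 CPM and in endothelial cells 7.51 against 13 CPM, with every ginkgetin library lower. The difference between these classes was not tested.

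In classes outside the comparisons, levels that lay above all vehicle libraries, with 3 libraries in each group and over 3 UMIs in ginkgetin cells, were the following. In plasma cells (65, 40 and 77 vehicle cells, 79, 152 and 63 ginkgetin cells) Cd274 was at 68.1 ± 12.5 against 37.6 ± 18.4 CPM and Ctla4 at 59.8 ± 15.3 against 27.9 ± 9.57 CPM (SD, n = 3 each). In cholangiocytes Lag3 was at a mean of 6.47 CPM from 9 UMIs against 2 UMIs in the vehicle libraries, among them vehicle 1, the library low in Lag3. Lgals9 in stellate cells also lay higher, at 161 ± 14.4 (n = 3) against 129 ± 5.30 CPM in only 2 vehicle libraries, as did Entpd1 in cholangiocytes and Tox in monocytes from 3 UMIs each. Other levels in these classes lay lower without overlap, such as Pdcd1 in the other T cells at 6.26 ± 4.07 against 46.8 ± 20.6 CPM and Ctla4 in B cells at a mean of 1.76 against 6.57 CPM. The share of all genes without overlap was not computed for these classes.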

How the results depend on the processing

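Pairs of a member and a class past the threshold numbered 0 of 32 in the reported fit, 3 with DESeq2's Wald test, without the filter on low counts or with the replicate block, 1 with the gene set as a block, and 0 to 1 with a library left out (Lag3 in macrophages without vehicle 1). The block changed no other call of a member. The 15 pairs followed were tested in the reported fit and had an unadjusted edgeR p under 0.05 there, were called in some setting, or were of Lag3. Over 218 alternatives they kept their direction in 212, turned in 6 and were called in 10. Most were thus chosen for a difference, and these counts do not describe the members in general. The turns were all of Lag3 with a library left out, from -1.65 to 0.51 in CD8 T cells, -0.80 to 0.63 in NK cells and -0.40 to 0.85 in dendritic cells. Thinned shares that did not overlap numbered 11 of 60, 6 at 500 UMIs, 19 with replicates 1 and 2 only, and 13 to 18 with a library left out (18 without vehicle 1). With the replicate block, differences within numbers had the same sign in 16 of 60. Fewer libraries leave more genes without overlap by construction, and the share over all genes was computed only for the reported setting, so these counts are not read as gains. The difference in CD8 T cells with 2 or more receptors was -0.538 points, also with the replicate block, -4.18 at 2000 UMIs, -9.32 without thinning and -1.14 to 0.115 with a library left out. The class with the highest level was the same for 7 to 10 of the 10 members with a library left out. Regulatory T cells had enough libraries for a test only with classes from whole profiles, where no member passed, and dendritic cells had too few under the UMI reading of the cell filter. Depth limits Tigit, Pdcd1 outside T cells, and every share.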
